A study of Homo sapiens with 4 samples.

Results

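The comparison described here set HuCCT1 cells that received an siRNA against GRB2 (siGRB2) beside HuCCT1 cells that received the Pre-miR negative control (miControl). HuCCT1 is an established human intrahepatic cholangiocarcinoma cell line. In both conditions cells were grown in 10% serum, transfected at 30 nM, moved 24 h later to medium with 0.1% serum and 5 ng/ml EGF, and harvested after 24 h of EGF. The siRNA is labelled siGRB2 and is named siGRB2-2 in the study's methods. The siControl array (a negative control siRNA) and the miR-376c array (Pre-miR-376c) received the same EGF treatment. The control used here is a miRNA precursor mimic and the treatment is an siRNA, so the kind of oligonucleotide differed together with the target, and the effects of the kind and of the target cannot be told apart. One RNA sample per condition (200 ng) was hybridized to 1 array, so 2 of the 4 arrays of the series enter the comparison. With no replicate, conditions could not be tested against each other, and neither p-values nor errors over cultures are available.

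GRB2 is an adaptor protein without enzymatic activity. It binds phosphotyrosines of activated receptors such as EGFR through its SH2 domain and carries the RAS exchange factor SOS on its SH3 domains, which couples the receptor to the RAS, RAF, MEK and ERK cascade. In EGF-treated epithelial cells that cascade drives immediate early genes, its own feedback inhibitors, and programs of proliferation and migration.

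A probe entered the comparison when the scanner software flagged it as well above background on both arrays, which held for 22614 of 34127 probes. These probes covered 14183 of the named genes. A level is the log2 processed signal minus the array's own 75th percentile, so that a level of 0 marks the 75th percentile and a negative level lies under it. A difference is the siGRB2 level minus the miControl level. A gene's difference is the mean over its probes. Levels of different probes cannot be ranked against each other, because probes differ in brightness for equal RNA.

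The targeted transcript was lower on the siGRB2 array. GRB2, covered by 1 probe with 1 spot, had a level of -0.65 on the siGRB2 array, 0.62 on the miControl array, -0.10 on the siControl array and 0.07 on the miR-376c array. The siGRB2 array was the lowest of the 4 and the miControl array the highest. The difference of -1.27 left 41.4% of the miControl signal. The scanner software gave it an error of 0.20, the same value as for GAPDH and ACTB. With 1 spot, no spread of GRB2 over spots was measured. Against the siControl array the difference was -0.55, so the size of the reduction depended on the control. In bulk RNA of this kind, fewer cells with a transcript and less transcript per cell cannot be told apart. Among the 5320 genes at or above the 75th percentile on at least 1 of the 2 arrays, GRB2 had the difference second from the lowest (rank 2), and among all genes compared its rank from the lowest was 27.

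Most transcripts differed little. The median difference over all genes was 0.04, and 5% of genes lay below -0.44 and 5% above 0.49. At least 2-fold, 210 probes (0.929%) were higher and 120 probes (0.531%) were lower on the siGRB2 array. Per gene these numbers were 104 higher (0.733%) and 71 lower (0.501%). At a limit of 1.5-fold, 843 probes (3.73%) were higher and 652 (2.88%) were lower, and 461 genes (3.25%) were higher and 362 (2.55%) lower. These percentages are the background for every list below. The spread of the differences fell with brightness, from an SD of 0.48 for the 5053 probes with a mean level under -4 to 0.14 for the 304 probes at a level of 6 or more. Of the dimmest probes 4.20% were at least 2-fold apart, against none of the brightest 304. The brightest probes were also shifted upwards, with a median difference of 0.18. For 756 probes with 8 or more spots the median standard error over spots was 0.02, beside an SD of 0.29 between the 2 arrays. For these probes spot noise was therefore small against the differences between arrays. A probe with 1 spot has no such averaging, and its spot noise was not measured. Variation between cultures was not measured. Of 122 genes with several probes and a mean difference of at least 1.5-fold, 114 had all probes on the same side and 38 had every probe past 1.5-fold. The 4 arrays shared a slide and a scan. The siControl array stood apart, since differences from it had an SD of 0.58 with siGRB2 and 0.58 with miControl, beside 0.34 between siGRB2 and miControl.

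**Figure D1:**
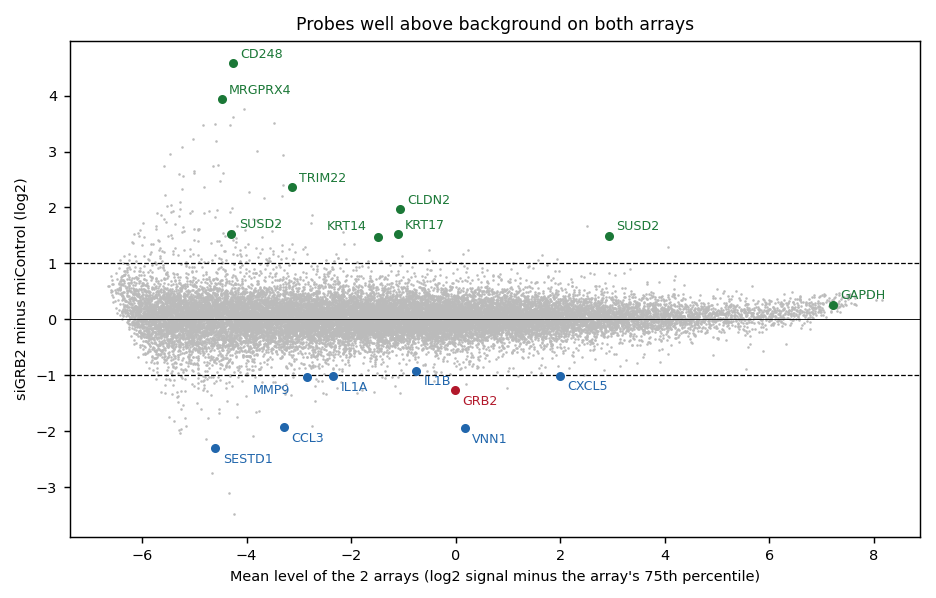
Difference between the siGRB2 and miControl arrays (log2, vertical axis) against the mean level of the 2 arrays (log2 relative to the 75th percentile, horizontal axis) for the 22614 probes well above background on both. Grey points are probes, dashed lines mark 2-fold, and coloured points are named genes; the cloud is widest among dim probes, and GRB2 (red) lies at -1.27 near a mean level of 0.

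Chemokines were the list with the lowest median. The upstream sequences of the 5 chemokine genes at least 1.5-fold lower are shown first because 4 of them hold a match to the same motif. They are the 250 bases before the start of each gene in the RefSeq table of GRCh38.p14, written 5′ to 3′ on the strand of the gene. Capitals mark matches to the NF-kB site (GGG, any 2 bases, then TTTCC, searched on both strands) and to the TATA box TATAAA (searched on the strand of the gene).
CXCL1 (chr4:73869143-73869392, plus strand): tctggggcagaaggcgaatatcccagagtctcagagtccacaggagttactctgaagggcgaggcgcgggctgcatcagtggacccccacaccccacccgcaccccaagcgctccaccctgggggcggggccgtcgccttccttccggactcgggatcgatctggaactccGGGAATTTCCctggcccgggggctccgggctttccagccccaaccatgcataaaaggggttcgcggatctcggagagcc
CXCL3 (chr4:74038690-74038939, minus strand): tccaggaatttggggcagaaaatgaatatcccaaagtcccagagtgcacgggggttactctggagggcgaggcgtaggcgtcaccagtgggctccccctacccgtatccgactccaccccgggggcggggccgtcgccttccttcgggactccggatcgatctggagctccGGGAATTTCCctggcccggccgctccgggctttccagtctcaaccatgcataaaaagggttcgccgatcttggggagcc
CXCL5 (chr4:73998678-73998927, minus strand): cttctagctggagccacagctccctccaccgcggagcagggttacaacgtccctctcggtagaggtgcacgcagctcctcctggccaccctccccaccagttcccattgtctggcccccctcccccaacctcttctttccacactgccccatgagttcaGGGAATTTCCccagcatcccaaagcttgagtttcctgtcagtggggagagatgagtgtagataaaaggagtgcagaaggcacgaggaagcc
CCL20 (chr2:227813592-227813841, plus strand): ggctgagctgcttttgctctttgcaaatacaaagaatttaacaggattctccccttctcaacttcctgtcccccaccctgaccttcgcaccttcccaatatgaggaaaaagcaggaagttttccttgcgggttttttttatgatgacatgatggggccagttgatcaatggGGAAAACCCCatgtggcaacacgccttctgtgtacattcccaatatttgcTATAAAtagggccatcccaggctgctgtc
CCL3 (chr17:36090144-36090393, minus strand): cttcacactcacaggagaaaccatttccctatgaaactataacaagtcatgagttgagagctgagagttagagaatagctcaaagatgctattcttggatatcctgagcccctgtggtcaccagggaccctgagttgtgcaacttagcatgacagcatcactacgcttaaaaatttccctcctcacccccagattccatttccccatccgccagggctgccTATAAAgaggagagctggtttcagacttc
Counted from the start of the gene, the NF-kB match began at position -79 in CXCL1, CXCL3 and CCL20 and at position -91 in CXCL5. CCL3 held none in this window. CXCL1, CXCL3 and CXCL5 are related genes of 1 chromosome, so their matches are not independent. Of all 35116 promoters listed there, 1.73% held the NF-kB match and 6.80% the TATA box. Among the 7 other chemokine list members compared that have a promoter in the table, 2 held the NF-kB match, CXCL2 (difference -0.46) and CXCL6 (-0.36). CCL2, the list member at least 1.5-fold higher, has no promoter listed there and was not searched. The pattern was set by hand, and whether a match goes with a lower level was not tested. Members of the interleukin-1 and S100 lists at least 1.5-fold lower were searched too. IL1A, IL1B, IL1RN, IL36G, S100A9 and S100P held no NF-kB match in this window. A match is a description of the letters and not evidence of binding.

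Of 26 genes on the chemokine list 15 were compared. Of these, 5 were at least 1.5-fold lower and 1 was higher, and the median was -0.36 beside 0.04 over all genes. CXCL5, a neutrophil-attracting chemokine, had levels of 1.48 on the siGRB2 array, 2.50 on the miControl array, 2.43 on the siControl array and 1.83 on the miR-376c array. The siGRB2 array was the lowest and both negative controls were the highest, and the difference was -1.01. CXCL1, a ligand of the same receptor family, differed by -0.85 and -0.52 on its 2 probes. Its brighter probe stood at -0.24 on the siGRB2 array, 0.61 on the miControl array, 0.64 on the siControl array and -0.43 on the miR-376c array. CCL20, which attracts CCR6-bearing lymphocytes and dendritic cells, was lower by a difference of -0.82 (-0.285 against the siControl array), and CXCL3 by -0.79. CCL3, a macrophage inflammatory protein with near-identical gene copies, had the largest difference of the list at -1.93. Its levels were -4.26 (siGRB2), -2.32 (miControl), -3.39 (siControl) and -4.50 (miR-376c), so the miControl array was the highest. The exception was CCL2, a monocyte attractant measured on 10 spots, which was higher by 1.23. CXCL8, another neutrophil attractant, differed by 0.02. CXCL10, induced by interferons, was well above background on the miControl array only, at least 1.54-fold lower on the siGRB2 array.

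The interleukin-1 family held 4 genes at least 1.5-fold lower and none higher among 17 compared of 20, with a median of -0.08. The 4 were ligands or the antagonist and not receptors. IL1B, a secreted proinflammatory cytokine, was measured on 10 spots with levels of -1.21 on the siGRB2 array (SD 0.08 over spots) and -0.29 on the miControl array (SD 0.07 over spots). The siControl level was -0.04 and the miR-376c level -1.70, so the siGRB2 array lay under both negative controls and above the miR-376c array. IL1A, the membrane-associated agonist, also on 10 spots, stood at -2.85 (siGRB2), -1.84 (miControl), -2.01 (siControl) and -2.82 (miR-376c). The siGRB2 and miR-376c arrays were level with each other and both controls were higher, and the difference was -1.02. The receptor antagonist IL1RN differed by -0.77 and -0.57 on its 2 probes. IL36G, an epithelial agonist, differed by -0.96 but was not well above background on the siControl array. By contrast IL18 differed by -0.04, the processing protease CASP1 by -0.08, and the coreceptor IL1RAP by 0.17 and -0.05 on its 2 probes. An AP-1 site, TGAGTCA on either strand, lay in the 250 bases upstream of IL1A and IL1RN and not in those of IL1B and IL36G, and 4.20% of all promoters hold it. The AP-1 site was absent from that window of CXCL1, CXCL3, CXCL5, CCL20, CCL3, S100A9 and S100P. None of the 30 genes compared on the list of NF-kB pathway members and targets was 1.5-fold apart (median 0.05). One further member of that list, CSF3, a granulocyte growth factor, had a probe well above background on the miControl array only, and by that probe it was at least 5.40-fold lower on the siGRB2 array. It was not well above background on the siControl and miR-376c arrays either.

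Secreted proteases and S100 proteins differed in some of their members. MMP9, a gelatinase that degrades basement membrane collagen, was measured on 10 spots and had levels of -3.36 (siGRB2), -2.32 (miControl), -2.05 (siControl) and -3.49 (miR-376c). The negative controls were the 2 highest, and the difference was -1.04. MMP11, stromelysin-3, differed by 1.49 near background, and MMP19 by 0.57 and 0.69 on its 2 probes. The 17 metalloproteinases and inhibitors compared had a median of 0.06. In the plasminogen activator system the median over 9 genes was -0.28, and it was -0.051 over 8 genes with the siControl array as the control. PLAU, the urokinase protease, differed by -0.44 on its 10-spot probe and by -0.99 on a second probe, and its receptor PLAUR by -0.51. Against the siControl array the PLAU probes gave -0.41 and 0.35 in that order. The inhibitor SERPINB2 differed by 0.17. S100A9, a subunit of calprotectin, differed by -1.47 and S100P by -0.71 (-0.133 against the siControl array). None of the 13 S100 genes compared was 1.5-fold higher. S100Z, not well above background on the siGRB2 array, was at least 1.64-fold lower there. The S100A9 level of -5.11 on the siGRB2 array was the lowest of the 4 arrays, where the other 3 lay between -4.11 and -3.64.

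**Figure D2:**
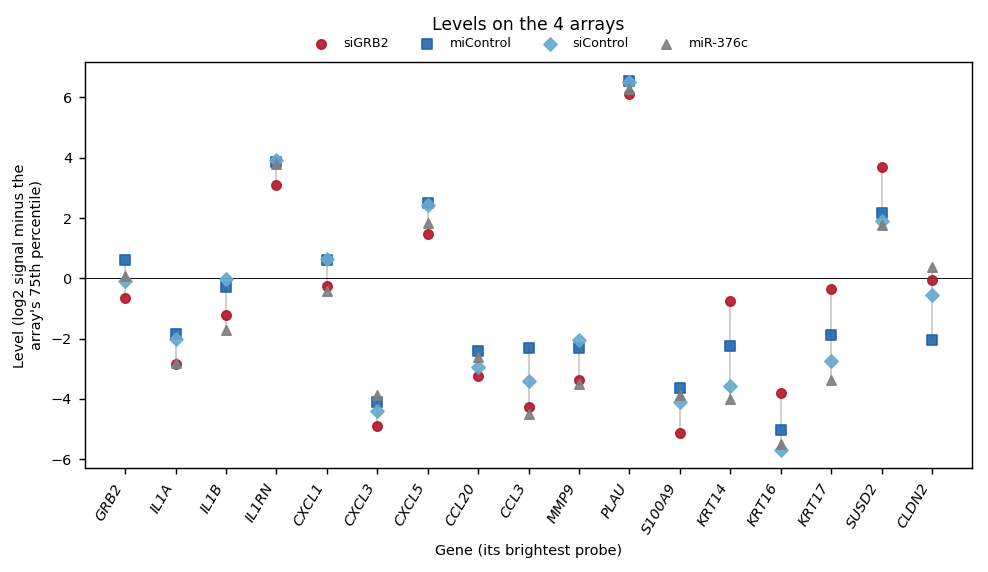
Levels (log2 signal minus the array's 75th percentile, vertical axis) on the 4 arrays for GRB2 and 16 genes described in the text, 1 probe per gene. Circles are siGRB2, squares miControl, diamonds siControl and triangles miR-376c; GRB2 is lowest on the siGRB2 array and KRT14, KRT16 and KRT17 are highest on it.

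The stress and basal keratins had the highest median of the lists. Of 7 compared of 12, 3 were at least 2-fold higher and none lower, with a median of 0.49. KRT17, KRT14 and KRT16 are intermediate filament proteins of basal, hyperproliferative and wounded epithelium. KRT17 had levels of -0.35 (siGRB2), -1.87 (miControl), -2.74 (siControl) and -3.38 (miR-376c). KRT14 followed the same order, at -0.75, -2.23, -3.57 and -3.99. KRT16 was dimmer, at -3.82 (siGRB2), -5.03 (miControl), -5.69 (siControl) and -5.49 (miR-376c). The siGRB2 array was the highest of the 4 for each gene, with differences of 1.52, 1.47 and 1.22. These 3 genes are close paralogs, and whether their probes share signal was not tested. KRT15 differed by -0.03 and KRT13 by -0.02, and KRT5, the partner of KRT14, was not well above background. The simple keratins of ductal epithelium had a median of 0.32, which was 0.02 after quantile normalization. Among them KRT80 was higher (0.83) and KRT23 was lower on both probes (-0.83 and -1.03), though not against the siControl array (mean 0.16).

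Other epithelial surface genes differed in both directions. CLDN2, a pore-forming claudin of tight junctions, had levels of -0.07 (siGRB2), -2.04 (miControl), -0.55 (siControl) and 0.37 (miR-376c), a difference of 1.97 in which the miControl array stood below the other 3. CTNNB1, beta-catenin, was higher on both probes (0.65 and 0.71). GJA1, connexin 43, was lower (-0.79), as were MARVELD2 and DSG3 (-0.68 each). The junction list as a whole had a median of 0.01 over 35 genes, with 2 at least 1.5-fold higher and 3 lower. Among adhesion genes ITGA1, a collagen-binding integrin subunit, was lower (-0.89). The caveolins went opposite ways, CAV1 lower on both probes (-0.50 and -0.88) and CAV2 higher (0.29 and 0.89). The tyrosine kinase SRC was lower by a difference of -0.64 on 10 spots, but higher than on the siControl array (0.37). ZEB1, a repressor of E-cadherin, differed by -0.50 and -1.10 on its 2 probes, and 1 of 16 genes on the mesenchymal list was higher, CCN2 (0.78).

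The EGF pathway itself showed few transcripts apart. Of 26 adaptor network genes compared of 31, GRB2 was the only one at least 1.5-fold lower, and SHC3, an SHC-family adaptor, was the only one higher (1.10 and 0.61 on its 2 probes). SHC2, of the same family, was well above background on the siGRB2 array only, at least 1.89-fold higher. SOS1, the exchange factor carried by GRB2, differed by -0.12 and -0.25, SOS2 by -0.20 and SHC1 by 0.19 and 0.15. None of 11 ERBB receptors and their brakes was 1.5-fold apart by the probes measured on both arrays, with a median of -0.15. A further, dim probe of ERBB3, well above background on the miControl array only, was at least 1.55-fold lower on the siGRB2 array. EGFR, the receptor stimulated here, was lower on each of its 3 probes by -0.44 (10 spots), -0.55 and -0.30. LRIG1, a negative regulator of EGFR, differed by -0.52 on 10 spots. Among the ligands EREG, epiregulin, was lower (-0.60), AREG, amphiregulin, differed by -0.34 and -0.39, and NRG1, neuregulin, was higher on both probes (0.66 and 0.53). The sheddase ADAM17, which releases several EGF-family ligands, was higher (0.71, but 0.275 against the siControl array). NRG2 was well above background on the siGRB2 array only, and by the bound it was at least 5.78-fold higher there.

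Downstream of GRB2, 2 of 22 genes of the RAS to ERK cascade were higher, RASGRP1, a RAS exchange factor (0.96), and MRAS (0.74), and none was lower. MRAS was not well above background on the siControl and miR-376c arrays. Of 15 ERK feedback genes 1 was lower, DUSP5, a nuclear ERK phosphatase (-0.66), with levels of 0.55 (siGRB2), 1.21 (miControl), 0.84 (siControl) and 1.24 (miR-376c). The other feedback genes included DUSP6 (-0.12), DUSP4 (-0.06) and SPRY2 (-0.12), all within 1.5-fold. None of 32 AP-1 and early transcription factor genes was 1.5-fold apart. MYC differed by -0.35, which was the lowest value of that list. Likewise none of 58 mitosis genes, 52 DNA replication genes, 17 genes of antigen presentation and 40 proteasome genes passed 1.5-fold among those measured on both arrays, and their medians lay between 0.01 and 0.04. With the siControl array as the control the DNA replication median was -0.345, where the median of all genes was 0.113. The medians there were -0.052 for mitosis, -0.033 for antigen presentation and -0.13 for proteasome genes. CCND2, cyclin D2, on the mitosis and cell-cycle list, was well above background on the siGRB2 array only and was at least 4.35-fold higher there.

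Several actin and matrix genes were higher. RDX, radixin, links actin to the membrane and was higher (0.89, but -0.11 against the siControl array), as were the actin nucleation promoter WASF3 (0.85) and calponin CNN1 (0.80, near background). In the extracellular matrix list 4 of 35 genes were higher and none lower. COL5A2 differed by 0.83, COL12A1 by 0.96 and 0.37 on its 2 probes, and the glypican GPC6 by 1.90 and 0.11, where the probes disagree. In the TGF-beta family 3 of 42 genes were higher, the binding protein LTBP2 (1.02), the target ID3 (0.89) and the activin antagonist FST (0.71 on 10 spots). SMAD9, a BMP signal transducer well above background on the siGRB2 array only, was at least 1.95-fold higher. The receptor TGFBR2 was lower (-0.77), with levels of 3.53 (siGRB2), 4.30 (miControl), 4.04 (siControl) and 3.92 (miR-376c). In the Wnt and Notch list NOTCH4 (1.32), NOTCH3 (1.04) and FZD5 (0.97) were higher, and the Notch ligand JAG1 was lower (-0.70). Against the siControl array NOTCH4 differed by 0.321 and FZD5 by 0.055. The 10 spots of FZD5 on the siGRB2 array had an SD of 0.24. For JAG1 the siGRB2 array was the lowest of the 4.

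Some metabolic and stress lists had medians above that of all genes (0.04), while others, such as the respiratory chain (0.05), the NRF2 list (0.09) and the unfolded protein response (0.10), lay closer to it. The cholesterol and fatty acid list had a median of 0.20 over 38 genes with 29 above 0, and 2 members were 1.5-fold higher, acetyl-CoA synthetase ACSS2 (0.78) and ATP citrate lyase ACLY (0.63). The glycolysis and hypoxia list had a median of 0.20 over 34 genes, with the glucose transporter SLC2A3 higher on both probes (1.06 and 0.89), and aldolase ALDOC and carbonic anhydrase CA9 higher by 0.78 each. The ATF4 list had a median of 0.21 over 38 genes, with the stress regulator NUPR1 at 1.10 and the amino acid transporter SLC7A5 at 0.66. Cytosolic ribosomal protein genes had a median of 0.15 with 71 of 78 above 0, and -0.02 after quantile normalization. Histone genes had a median of -0.14 with 42 of 53 below 0. None of the 78 ribosomal or 53 histone genes was 1.5-fold apart. With the siControl array as the control the median of all genes was 0.11, and the list medians were 0.01 for cholesterol, -0.03 for glycolysis, 0.21 for ATF4 and 0.13 for histone genes.

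**Figure D3:**
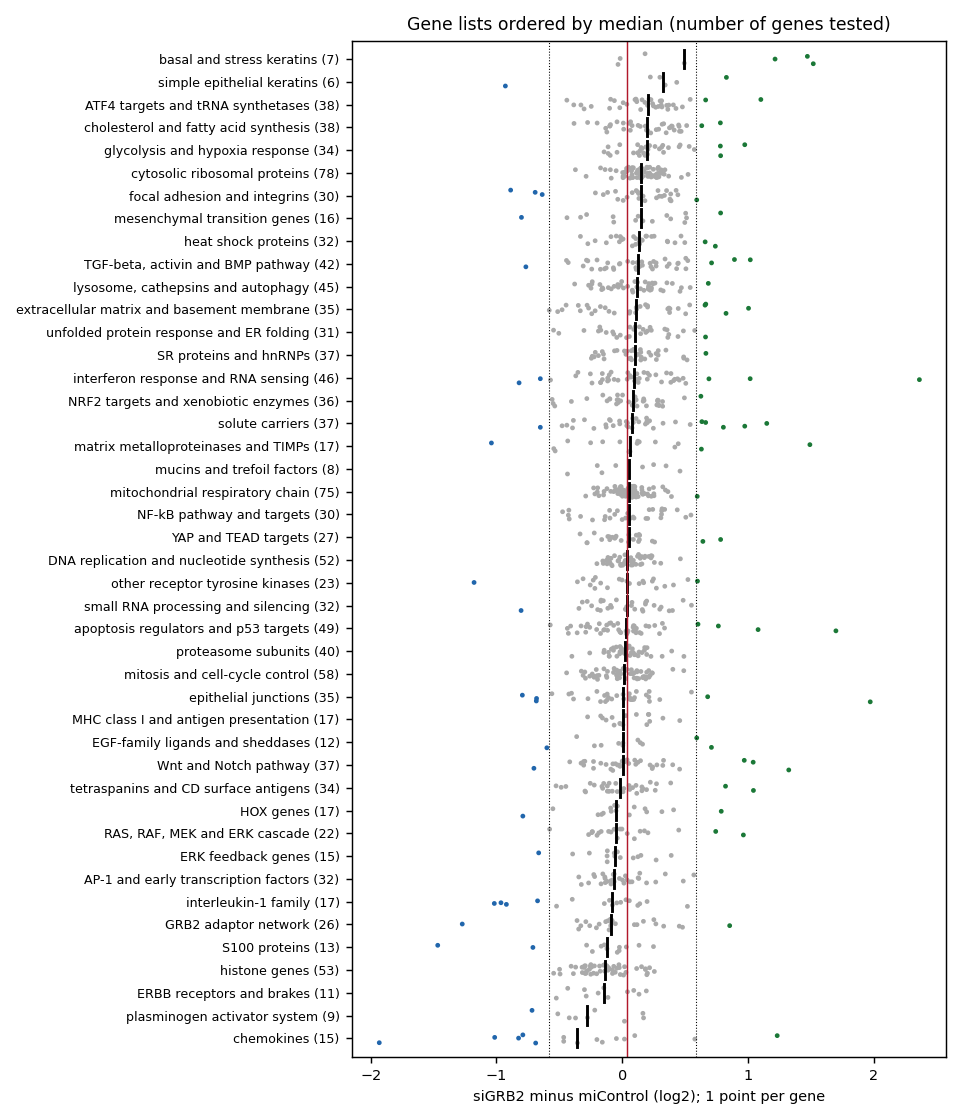
Differences between the siGRB2 and miControl arrays (log2, horizontal axis) for the genes of 44 lists, ordered by median, with 1 point per gene and the number of genes compared in parentheses. Black bars are list medians, the red line is the median of all genes (0.04), dotted lines mark 1.5-fold, and green and blue points lie past it; 40 of the 44 medians lie within 0.20 of the red line, with chemokines lowest at -0.36 and basal and stress keratins highest at 0.49.

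Interferon and apoptosis genes differed one by one. TRIM22, an interferon-induced ubiquitin ligase, had levels of -1.96 (siGRB2), -4.32 (miControl), -3.95 (siControl) and -3.00 (miR-376c), and its difference of 2.36 was the largest of the interferon list. OASL (1.02) and GBP1 (0.69) were higher, while SAMD9L was lower on both probes (-0.87 and -0.77) and IFIT2 differed by -0.46 and -0.84. Against the siControl array the IFIT2 probes gave -0.44 and 0.34 in that order, and OASL gave 0.376. Over 46 interferon genes the median was 0.10. In the apoptosis list ZMAT3, a p53 target, was higher by 1.08 on 10 spots, and BBC3, the BH3 protein PUMA, by 0.77 (-0.12 against the siControl array). The death receptor FAS differed by -0.55 (10 spots), -0.63 and -0.54 on its 3 probes. BCL2A1, an antiapoptotic BCL2 relative, gave contrary values, with 3.63 on a probe that was not well above background on the siControl and miR-376c arrays and -0.23 on a brighter one. FGFR2 had probes at -2.03 and -0.33, and the first was not well above background on those arrays either. The heat shock protein HSPB1 was higher on both probes (0.91 and 0.57).

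Ranked over all genes, the 10 highest and 10 lowest all had a level under -4 on at least 1 of the 2 arrays, except VNN1. CD248, a surface glycoprotein of stromal cells, led with 4.58, from a miControl level of -6.56 to a siGRB2 level of -1.98. It was followed by MRGPRX4, a Mas-related receptor (3.94), and by DGKB, a diacylglycerol kinase (3.49). CD248 and MRGPRX4 were not well above background on the siControl and miR-376c arrays, whereas DGKB stood at -3.35 on the miR-376c array, close to its siGRB2 level of -2.87. The rest of the 10 highest were LOC148696, PADI2, GRIP2, ALOX5AP, ARGFXP2, LRRN3 and TCF23, from 3.01 down to 2.37. PADI2, a peptidylarginine deiminase, has a second probe that was well above background on the miControl array only and points the other way, at least 2.59-fold lower with siGRB2. TCF23 stood at -3.64 on the siGRB2 array and -3.89 on the siControl array, and low on the other 2. The 10 lowest were SESTD1 (-2.30), DRD3, KPRP, VNN1, CCL3, CALB2, P2RX6, GABRA5, MSANTD3-TMEFF1 and ZNF554 (-1.61). DRD3, KPRP, P2RX6 and GABRA5 were not well above background on the siControl and miR-376c arrays, so for these the miControl array was the one that stood apart.

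Among the 5320 brighter genes 9 were at least 2-fold higher and 6 at least 2-fold lower. VNN1, a pantetheinase, had the lowest difference (-1.95), with levels of -0.80 (siGRB2), 1.15 (miControl), 0.34 (siControl) and -0.49 (miR-376c). GRB2 followed, and then GMFG, a regulator of actin branching (-1.23), the clathrin adaptor subunit AP1S1 (-1.15), the cortisol-producing enzyme HSD11B1 (-1.11) and CXCL5. For AP1S1 the siControl array was lower still (-1.26 against -0.37), and for GMFG the miR-376c array was (-0.06 against 0.37). ELL2, SAA4, IFNE and RESF1 completed the 10 lowest at -0.95 to -0.94. For IFNE too the siControl array was lower than the siGRB2 array (-0.95 against -0.85). Of the 10 lowest, siGRB2 was the lowest of the 4 arrays for 6 (VNN1, GRB2, HSD11B1, CXCL5, SAA4 and RESF1), and miControl was the highest for 8, all but HSD11B1 and RESF1. SUSD2, a sushi-domain membrane protein, had the highest difference, 1.52 as the mean of 2 nearly equal probes. Its brighter probe stood at 3.68 on the siGRB2 array against 2.18 (miControl), 1.89 (siControl) and 1.78 (miR-376c). COMMD10 (1.24), the mannose-phosphate enzyme PMM2 (1.23), the ER insertase subunit EMC10 (1.67 and 0.79 on its probes) and TMEM248 (1.06) came next. The hormone subunits CGB3 (1.03) and LHB (1.01) share sequence and may share signal. RDH11 (1.01), UBE2V1 (1.08 and 0.93) and RIMOC1 (0.93) completed the 10 highest. By the brightest probe of each gene, miControl was the lowest array for 7 of the 10 highest, all but SUSD2, CGB3 and LHB, with UBE2V1 measured by that probe on 3 arrays. COMMD10, for example, stood at 0.85 (siGRB2), -0.39 (miControl), 0.95 (siControl) and 0.88 (miR-376c).

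**Figure D4:**
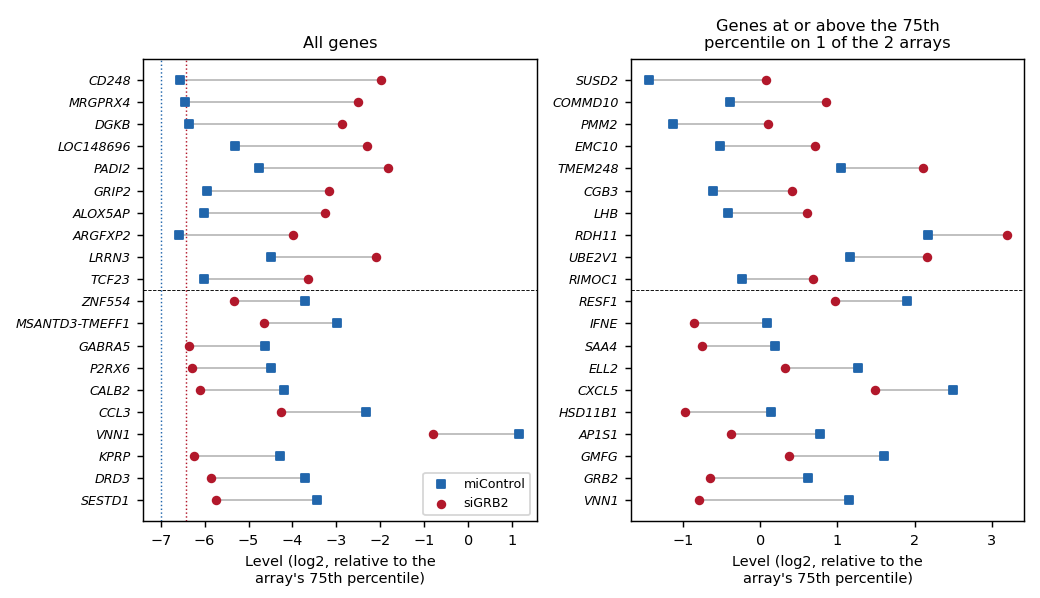
Levels (log2 relative to the array's 75th percentile, horizontal axis) on the siGRB2 array (circles) and the miControl array (squares) for the 10 genes highest and 10 lowest on the siGRB2 array, among all genes (left) and among genes at or above the 75th percentile on 1 of the 2 arrays (right); a gene with several probes is drawn at their mean. Dotted lines at left mark the lowest level of a spot well above background on each array (-6.43 for siGRB2 and -6.99 for miControl) and VNN1, at left, is the only gene with a level above 0 there.

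The reference genes and cell type markers gave a check of the arrays. GAPDH, on 10 spots, differed by 0.26, and ACTB by 0.15 (10 spots) and 0.44 on its 2 probes. Biliary epithelium markers were present, with 10 of 11 well above background on both arrays and none 1.5-fold apart. Of these KRT19 and KRT7, cytokeratins of bile duct epithelium, had siGRB2 levels of 8.32 and 8.09. Of hepatocyte markers 3 of 10 were well above background, of fibroblast markers 3 of 10, of endothelial markers 4 of 10 and of leukocyte markers 7 of 10. The leukocyte markers lay above 0 in all 7 cases, with CSF1R at 0.72 (-0.26 against the siControl array) the only one past 1.5-fold. The part of these markers in the results above was not tested.

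Detection differed between the arrays. On the siGRB2 array 397 probes were well above background and not on the miControl array, and 1505 probes were so on the miControl array only. The 75th percentile signal was 1995 on the siGRB2 array and 2689 on the miControl array. By the bound that the lowest measured signal allows, 262 of the 397 were at least 2-fold higher and 128 of the 1505 at least 2-fold lower on the siGRB2 array. The part of overall brightness in these counts was not tested.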

How the data were processed

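Gene expression was measured in HuCCT1 cells with 1 single-colour (Cy3) array per condition. For each array the authors deposited spot intensity values of Agilent Feature Extraction (10.7), which include a background-subtracted processed intensity, raw spot and local background medians, and flags. They also deposited a table of log2 values shifted to the 75th percentile. Differences were calculated in Python (version 3.11.15) using pandas (version 2.3.3) and numpy (version 2.4.6). The quantile and normexp alternatives used limma (version 3.58.1) in R (version 4.3.3). Log2 values of non-control spots were shifted to the array's 75th percentile, spots with an outlier flag (312 on siGRB2 and 289 on miControl) were left out, and spots of a probe were averaged. No spot was saturated. A probe counted as detected when over 0.5 of its kept spots were well above background. Where it was detected on 1 array only, the bound used the higher of its own level on the other array and the lowest level well above background there. If its own level was the higher, the bound is the measured difference and not a strict lower limit. Probe accessions gave a gene name to 25422 of 34127 probes (74.5%) by way of RefSeq accessions (GRCh38.p14, from which only names and promoter sequences were taken).

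Differences were taken without a test, and lists were described by counts past 1.5-fold and 2-fold and by medians. The members and lists were chosen with earlier results of these data known. Genes named were GRB2, GAPDH, ACTB, IL1B, MMP9, the 10 highest and 10 lowest among all genes and among brighter genes (all detected probes on the same side), and up to 3 members each way per list. Further list members given with values were chosen after their values were seen. Some list members and 1 list are not reported here. The calculation was tested on simulated data.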

Additional observations from a re-analysis of the deposited data

How the results depend on the processing

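No paired analysis was possible because there is 1 array per condition. The median scale, the 75th percentile over probes detected on all 4 arrays, quantile normalization, the deposited log2 table, kept outlier spots and the 2 stricter detection rules left both probe counts within 1.5 times, GRB2 within its scanner error, and all 50 list medians within 0.20, except the simple keratins after quantile normalization. Among the named genes at least 1.5-fold apart and measured under these settings, or with the brightest probe of a gene, the sign turned only for BCL2A1 (-0.23), with detection on all 4 arrays and with the brightest probe. Probes at least 2-fold higher and lower numbered 472 and 248 with bounds for probes detected on 1 array, 1286 and 719 with no filter on dim probes, 71 and 24 at 3-fold, and 843 and 652 at 1.5-fold.

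With siControl as the control, 1204 probes were higher and 578 lower, GRB2 differed by -0.55, and 16 of 50 list medians moved by over 0.20. Of the named genes measured there, 25 stayed within 0.20. The sign turned for 18 of the 111 named genes measured there that were at least 1.5-fold apart, and of those at least 2-fold apart for AP1S1 (0.88), BCL2A1 (-0.41), COMMD10 (-0.10), FGFR2 (0.64), RDH11 (-0.071) and ZNF554 (0.50). With the mean of both negative controls, GRB2 differed by -0.91, BCL2A1 by -0.32 and FGFR2 by 0.16. KRT14, KRT17, SUSD2, VNN1, CXCL5, IL1B and MMP9 kept their direction under every alternative except, for IL1B (0.09) and MMP9, the normexp correction on all spots.

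The normexp correction gave 11737 probes higher and 1229 lower, GRB2 at -0.53, and medians of 3.11 for the interleukin-1 family, 1.99 for chemokines and 2.08 for basal and stress keratins. The sign turned for 34 of the 124 named genes at least 1.5-fold apart, and of those at least 2-fold apart for CALB2 (3.25), CCL3 (1.99), DRD3 (2.86), FGFR2 (2.80), GABRA5 (3.52), IL1A (1.23), KPRP (3.27), MMP9 (1.77), MSANTD3-TMEFF1 (2.24), P2RX6 (3.56), S100A9 (2.68), SESTD1 (2.69) and ZNF554 (2.70). On the siGRB2 array 7 spots had a local background over 10 times the median. Without them, an alternative chosen after seeing the data, the counts were 105 and 21, GRB2 stood at -1.21, and no named gene past 1.5-fold turned. Dim probes limit the counts: the 2-fold share was 4.20% for levels under -4.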
